A study of Mus musculus with 4 samples.

Results

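The integrated stress response and the neighbouring unfolded protein response were followed through 10 genes, Atf4, Atf5, Atf6, Ddit3, Ddit4, Trib3, Asns, Xbp1, Ern1 and Ppp1r15a, chosen by name and each found on 1 row among the 25965 genes of the deposited table. The cells were round spermatids, the haploid germ cells that follow meiosis, sorted by flow cytometry from testes of ICR mice and read as full-length messenger RNA with Smart-seq2. There were 2 libraries from Wfdc15a-/- mice, labelled knockout, and 2 from Wfdc15a+/- mice, which serve as controls and also carry 1 altered allele. Wild-type controls named in the design text were not analysed here. The labels give neither the age of the mice nor the altered part of Wfdc15a, and they do not say whether libraries of a genotype came from separate animals, so p-values measure the spread between these libraries, which may be technical.

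In the integrated stress response, kinases that sense amino acid shortage, haem shortage, double-stranded RNA or misfolded protein phosphorylate the initiation factor eIF2. General translation then slows, while mRNAs with upstream reading frames such as that of ATF4 are translated better, and ATF4 switches on genes of amino acid supply, of redox balance and, through CHOP, of cell death. In the unfolded protein response, the endoplasmic reticulum sensors PERK, IRE1 and ATF6 respond to misfolded protein in the lumen. PERK acts through eIF2, IRE1 removes a short intron from the Xbp1 mRNA, and ATF6 is cut to release a transcription factor. Much of this control acts on translation, splicing or cleavage, which a table of reads per gene does not show.

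The library totals recovered from the values were 21160061 and 11268909 reads for knockout-labelled libraries 1 and 2, against 5774112 and 33853604 reads for heterozygous libraries 1 and 2. Wfdc15a itself was read at 82.6 and 59.5 RPM (the read count scaled to the library total, without regard to gene length) in the knockout-labelled libraries and at 121 and 85.2 RPM in the heterozygous ones, so the genotype is given as labelled. Defining markers of round spermatids were present: the 12 listed, such as Acrv1 and Spaca1, summed to 4701 and 4254 RPM in the knockout-labelled libraries, against 3474 and 4359 RPM in the heterozygous ones. The 20 macrophage markers summed to 458 and 163 RPM, against 64.4 and 49.7 RPM, and the 8 Leydig cell markers to 38.1 and 19.3 RPM, against 6.58 and 3.19 RPM. Both sums were larger in each knockout-labelled library than in either heterozygous one. Fewer cells of a type and less RNA per cell cannot be told apart in such samples.

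Promoter and mRNA sequences are shown for the members the results turn on. RefSeq gives promoter windows on GRCm38.p6 for 9 of the 10 members, reaching from 250 bases before to 50 bases after the start. They were searched on both strands for TGATGNAA, the core of the C/EBP-ATF element bound by ATF4, for the cAMP response element TGACGTCA, for TGACGTGG, the unfolded protein response element, and for the longer endoplasmic reticulum stress element. The first of these is in 3.97% of all 32851 promoter windows, the second in 1.79%, the third in 0.676% and the last in 0.119%. The 120 bases before the start are given for Asns, the most abundant member, for Ppp1r15a, the feedback phosphatase subunit, and for Atf4, the member furthest apart between the genotypes, with matches in capitals.
Asns, chr6:7693210-7693329, minus strand: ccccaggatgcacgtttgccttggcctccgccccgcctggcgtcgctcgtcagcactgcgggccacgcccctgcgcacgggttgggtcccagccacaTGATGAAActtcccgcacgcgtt
Ppp1r15a, chr7:45526269-45526388, minus strand: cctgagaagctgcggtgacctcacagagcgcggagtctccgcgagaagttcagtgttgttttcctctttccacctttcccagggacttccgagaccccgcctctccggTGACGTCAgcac
Atf4, chr15:80255064-80255183, plus strand: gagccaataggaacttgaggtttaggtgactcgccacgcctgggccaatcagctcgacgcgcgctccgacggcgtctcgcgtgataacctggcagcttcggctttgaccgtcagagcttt

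Asns held TGATGAAA from 23 to 16 bases before the RefSeq start, which lies within the gene as the deposited table bounds it. Ppp1r15a held the full cAMP response element from 12 to 5 bases before its start. The other match was in Trib3, where the C/EBP-ATF core lay on the opposite strand from 15 to 22 bases after the start. No window of Atf4, Atf5, Ddit3, Ddit4, Xbp1 or Ern1 held any of these letters. The IRE1 cut sites of Xbp1 are shown because they mark what the deposited values leave out. In exon 4 of 5 of the annotated coding transcript, the loop CNGCAGC occurs at both ends of a 26-base interval, shown with the loops in capitals.
Xbp1 mRNA as DNA letters, chr11:5524266-5524318, plus strand, mm10: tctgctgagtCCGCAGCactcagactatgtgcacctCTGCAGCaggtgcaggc

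IRE1 cuts after the third base of each loop and so removes 26 bases. Reads were summed over the gene, and the spliced and unspliced forms of Xbp1 are therefore 1 value here.

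The sorted round spermatid libraries of both genotypes held a lopsided set of these mRNAs. Asns and Ddit3 were abundant, Atf4, Atf5, Atf6, Xbp1, Ern1 and Ppp1r15a were modest, and Trib3 and Ddit4 were almost absent. Levels of different genes were set side by side as RPM per kb of annotated exon. The sources do not say whether reads in introns were also counted. If they were, this scale overstates genes with long introns, so the order of genes below holds on this scale only. Asns, asparagine synthetase and a classical ATF4 target, averaged 68.8 ± 15.3 RPM per kb in the knockout-labelled libraries and 43.6 ± 11.7 RPM per kb in the heterozygous ones (SD, n = 2 each). Ddit3, which encodes the transcription factor CHOP, averaged 31.5 ± 9.87 RPM per kb in the knockout-labelled libraries and 23.4 ± 5.397 RPM per kb in the heterozygous ones. These were the 2 most abundant members in each of the 4 libraries, with Asns ranked 1 and Ddit3 ranked 2 every time, although the ranges over the 4 libraries overlap (35.3 to 79.6 for Asns and 19.6 to 38.5 for Ddit3).

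A gap separated Ddit3 from the rest. Atf4 ranged over the 4 libraries from 1.52 to 5.72 RPM per kb, Atf6 from 2.46 to 3.17, Atf5 from 1.69 to 3.02, Ppp1r15a from 1.13 to 1.99, Xbp1 from 0.5002 to 1.24 and Ern1 from 0.246 to 0.821. Each of these ranges over both genotypes overlaps that of its neighbour in the order. Within each of the 4 libraries, however, Atf6 stood above Atf5 and Xbp1 above Ern1 on this scale. The margin of Atf6 over Atf5 was small in heterozygous library 1, at 2.46 against 2.35. Atf6 and Ern1 span far more of the genome than Atf5 and Xbp1, so intron reads, if counted, would weigh more in them. Atf4 ranked 3 in both knockout-labelled libraries and 5 in both heterozygous ones. Xbp1 and Ern1 ranked 7 and 8 in all 4 libraries. On the scale of RPM, Asns lay above 93.3% and 90.3% of the tested genes in the knockout-labelled libraries and above 84.1% and 88.8% in the heterozygous ones.

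**Figure D1:**
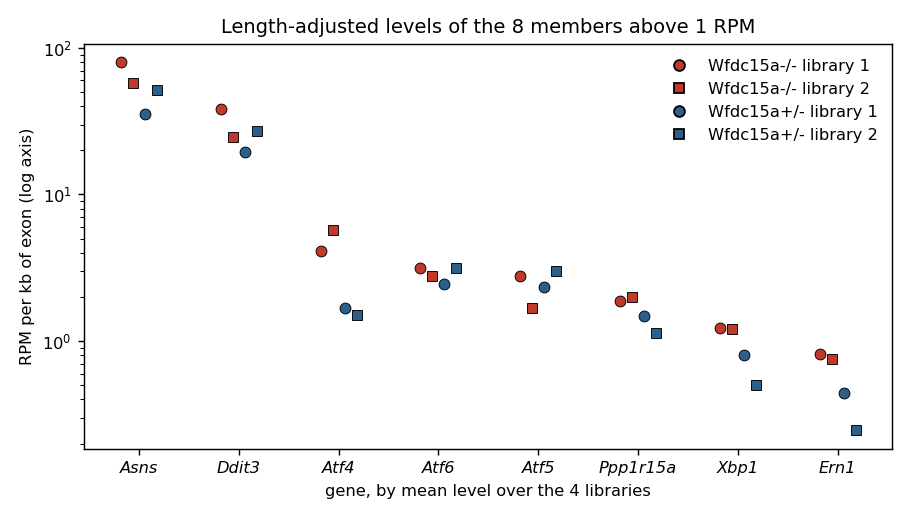
Level of each member above the filter, in RPM per kb of GENCODE M21 exon on a log axis, ordered by its mean over the 4 libraries; each point is 1 library. Asns (35.3 to 79.6) and Ddit3 (19.6 to 38.5) stand above the other 6 members, whose highest value is the 5.72 of Atf4. Whether reads in introns are included is not known.

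Trib3 and Ddit4 stood at the limit of detection. Trib3, a pseudokinase induced by ATF4 and CHOP that damps their action, had 0 and 3 reads in the knockout-labelled libraries and 0 and 1 in the heterozygous ones. Ddit4, an inhibitor of mTORC1 signalling that stress and glucocorticoids induce, had 0 reads in both knockout-labelled libraries, and 0 and 1 in the heterozygous ones. A count of 0 allows up to 0.142 and 0.266 RPM in the knockout-labelled libraries and 0.520 and 0.0886 RPM in the heterozygous ones, taking 3 reads as the bound, which covers counting error only and is too low if both mates of a fragment were counted, as may be the case here. Neither gene passed the filter of 1 RPM in 2 libraries, and no fold is given for them. The other 8 members exceeded 1 RPM in all 4 libraries and were tested.

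The design sets Wfdc15a-/- against Wfdc15a+/- spermatids. Atf4, Ern1, Xbp1, Asns and Ppp1r15a had higher values in both knockout-labelled libraries than in either heterozygous library, while Atf5, Atf6 and Ddit3 overlapped and no member was lower in both. The largest ratio of mean RPM was 3.07, for Atf4. No member passed the test: limma gave 0 of 8 members an adjusted p under 0.05, and 0 of 15888 tested genes (0%). Both knockout-labelled libraries lay above both heterozygous ones for 5 of the 8 members, against 23.5% of all tested genes, and below for 0, against 15.0%. The same 5 members lay above after median-ratio scaling (20.1% of all tested genes above and 19.0% below) and after quantile normalization (18.4% above and 19.6% below). The median log2 difference, knockout-labelled minus heterozygous, was 0.63 over the 8 members and 0.068 over all tested genes. The members were chosen with earlier results of these data known, which limits such comparisons with all tested genes. At an unadjusted p under 0.05, 3 members were higher, against 6.21% of all tested genes, and 0 were lower, against 1.87%. An exact permutation test of 2 against 2 libraries cannot give a p below 0.333 (two-sided).

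**Figure D2:**
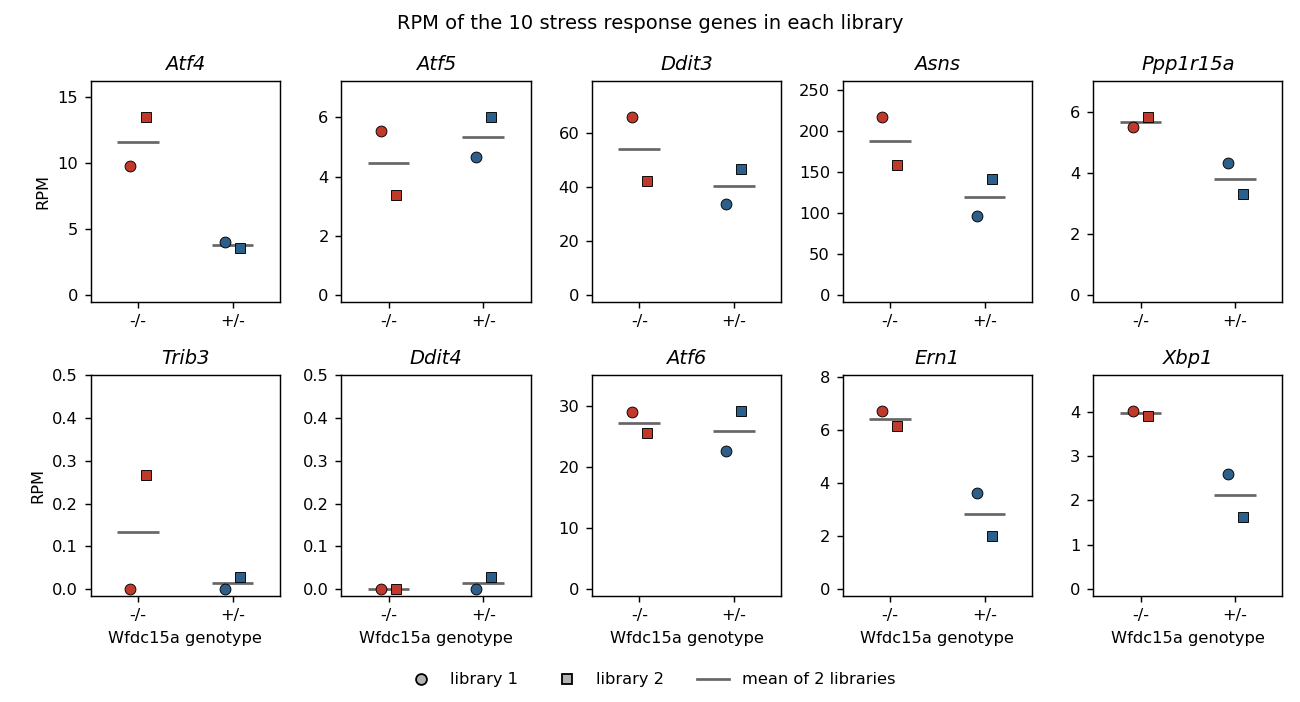
RPM of each of the 10 genes in each library (circles, library 1; squares, library 2), with the mean of 2 libraries per genotype as a bar; each panel has its own linear axis from 0. For Atf4 the knockout-labelled libraries stand at 9.74 and 13.5 RPM and the heterozygous ones at 3.98 and 3.57 RPM, while Trib3 and Ddit4 reach at most 0.266 RPM.

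Atf4 (chromosome 15, 80255184 to 80257540, plus strand, mm10) encodes the transcription factor at the centre of the response. It was read at 9.74 and 13.5 RPM in the knockout-labelled libraries, from 206 and 152 reads, and at 3.98 and 3.57 RPM in the heterozygous ones, from 23 and 121 reads. The groups did not overlap, and each varied less within itself than the gap between them. The log2 difference was 1.60 (SE 0.45, 95% confidence interval 0.60 to 2.60, limma adjusted p = 0.453). Among all tested genes 1.05% had a smaller p and 5.95% a higher difference. Leaving out any 1 library gave differences of 1.37 to 1.84.

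The sum of macrophage markers was also higher in both knockout-labelled libraries. It was larger in knockout-labelled library 1 than in library 2 (458 against 163 RPM). Of the members that lay above, Atf4 and Ppp1r15a were higher in library 2, and Asns, Ern1 and Xbp1 in library 1. The part of other cells in these values was not tested. Set against the 12 round spermatid markers, Atf4 stood at 2.07 and 3.17 RPM per 1000 RPM of those markers in the knockout-labelled libraries and at 1.15 and 0.820 in the heterozygous ones.

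Atf5 (chromosome 7, 44812257 to 44816658, minus strand), a relative of Atf4 under the same kind of translational control, did not share this order. It was read at 5.53 and 3.37 RPM in the knockout-labelled libraries and at 4.68 and 6.03 RPM in the heterozygous ones, so the groups overlapped. Its log2 difference was -0.30 (95% confidence interval -1.45 to 0.85, limma adjusted p = 0.919), and it was 0.06 without knockout-labelled library 2. Per 1000 RPM of round spermatid markers, Atf5 was at 1.18 and 0.793 RPM in the knockout-labelled libraries and at 1.35 and 1.38 RPM in the heterozygous ones, so that on this scale both knockout-labelled libraries lay below. Its first 571 bases lie across Nup62 and 289 of them across Il4i1, which are read from the other strand at 70.8 to 87.0 and 147 to 179 RPM, and the protocol keeps no strand.

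Ddit3 (chromosome 10, 127290774 to 127296288, plus strand) had 65.9 and 42.0 RPM in the knockout-labelled libraries, against 33.6 and 46.7 RPM in the heterozygous ones. Only knockout-labelled library 1 stood apart, and the groups overlapped. The log2 difference was 0.41 (95% confidence interval -0.31 to 1.13, limma adjusted p = 0.777), and leaving out 1 library gave values of 0.08 to 0.73. The libraries took the same order as the sum of round spermatid markers, with heterozygous library 1 lowest in both. Per 1000 RPM of those markers, Ddit3 was at 14.0 and 9.87 RPM in the knockout-labelled libraries and at 9.67 and 10.7 RPM in the heterozygous ones. Its last 68 bases lie across Mars, a methionyl-tRNA synthetase gene read from the other strand at 43.4 to 44.7 RPM in the knockout-labelled libraries and 39.7 to 40.2 RPM in the heterozygous ones. GENCODE M21 also holds a shorter Ddit3 entry inside this one, and the RPM per kb above uses the exon length of the longer entry.

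Asns (chromosome 6, 7675169 to 7693254, minus strand), whose promoter with the C/EBP-ATF core is printed above, was read at 218 and 158 RPM in the knockout-labelled libraries, from 4606 and 1786 reads. In the heterozygous libraries it was at 96.6 and 142 RPM, from 558 and 4801 reads. The groups did not overlap, but heterozygous library 2 lay closer to knockout-labelled library 2 than to heterozygous library 1. The ratio of means was 1.58 and the log2 difference 0.67 (SE 0.27, 95% confidence interval 0.06 to 1.27, limma adjusted p = 0.596). Leaving out 1 library gave 0.39 to 0.94, and without heterozygous library 2 the limma adjusted p was 0.0455, the lowest over the alternatives run, whose highest was 1. Per 1000 RPM of round spermatid markers, Asns was at 46.3 and 37.3 RPM in the knockout-labelled libraries, against 27.8 and 32.5 RPM in the heterozygous ones.

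Ppp1r15a (chromosome 7, 45522916 to 45526268, minus strand) encodes GADD34, the stress-induced subunit that brings protein phosphatase 1 to eIF2 and so ends the response. It was read at 5.53 and 5.86 RPM in the knockout-labelled libraries and at 4.33 and 3.31 RPM in the heterozygous ones. The groups did not overlap in RPM, but they did per 1000 RPM of round spermatid markers, with 1.18 and 1.38 RPM against 1.25 and 0.759 RPM. The log2 difference was 0.59 (95% confidence interval -0.53 to 1.70, limma adjusted p = 0.797), with 0.39 to 0.78 on leaving out 1 library. The last 717 bases of the gene lie across Tulp2, a testis gene on the other strand at 954 and 784 RPM in the knockout-labelled libraries and 522 and 808 RPM in the heterozygous ones, and the 2 genes' reads cannot be told apart there.

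Among the genes of the unfolded protein response, Ern1 and Xbp1 had groups that did not overlap and Atf6 had groups that did, with confidence intervals that overlap one another. Ern1 (chromosome 11, 106394650 to 106487852, minus strand), the gene of IRE1, was read at 6.71 and 6.12 RPM in the knockout-labelled libraries and at 3.64 and 2.01 RPM in the heterozygous ones. Its groups did not overlap, and the knockout-labelled pair was the tighter. The log2 difference was 1.25 (SE 0.55, 95% confidence interval 0.03 to 2.46, limma adjusted p = 0.607), with 0.82 to 1.67 on leaving out 1 library.

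Xbp1 (chromosome 11, 5520659 to 5525893, plus strand), whose mRNA IRE1 cuts at the site printed above, took the same order of libraries. The sums of macrophage and of Leydig cell markers took that order too, and the part of those cells was not tested. Xbp1 was at 4.02 and 3.91 RPM in the knockout-labelled libraries and at 2.60 and 1.62 RPM in the heterozygous ones, from 15 to 85 reads per library. The log2 difference was 0.95 (95% confidence interval -0.43 to 2.32, limma adjusted p = 0.718), with 0.61 to 1.29 on leaving out 1 library and 0.61 without heterozygous library 2. Per 1000 RPM of round spermatid markers the groups of both genes stayed apart. Ern1 had 1.43 and 1.44 RPM in the knockout-labelled libraries, with 1.05 and 0.461 RPM in the heterozygous ones, and Xbp1 had 0.854 and 0.918 RPM, with 0.748 and 0.373 RPM.

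Atf6 (chromosome 1, 170704457 to 170867771, minus strand), the membrane-bound factor that is cleaved on stress, had 29.0 and 25.6 RPM in the knockout-labelled libraries and 22.7 and 29.2 RPM in the heterozygous ones. The groups overlapped almost entirely. The log2 difference was 0.08, with a 95% confidence interval of -0.62 to 0.79 (limma adjusted p = 0.970), which leaves room for a difference of either sign. Per 1000 RPM of round spermatid markers both knockout-labelled libraries lay below, at 6.17 and 6.01 RPM against 6.53 and 6.70 RPM. The difference in RPM was -0.10 without heterozygous library 1 and -0.01 without knockout-labelled library 1.

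**Figure D3:**
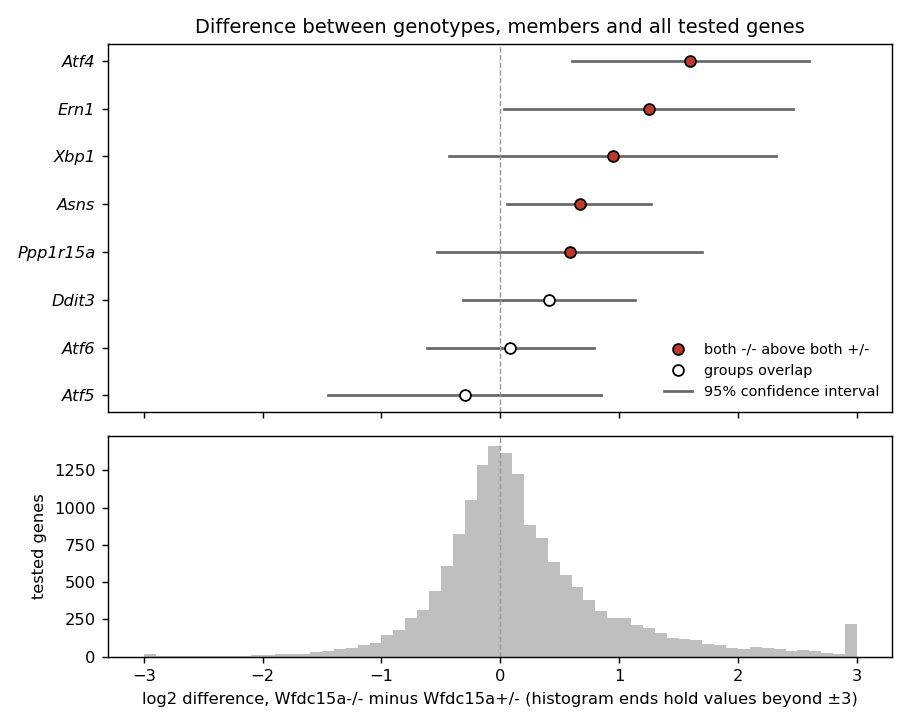
Top, log2 difference between knockout-labelled and heterozygous libraries for the 8 tested members with 95% confidence intervals, filled where both knockout-labelled libraries lay above both heterozygous ones; bottom, the same difference for all 15888 tested genes. Estimates run from -0.30 (Atf5) to 1.60 (Atf4), and the intervals of Atf4, Ern1 and Asns lie above 0 before adjustment.

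The kinases and the eIF2 machinery upstream of Atf4 had a median log2 difference of 0.23 over 19 tested genes of 20 listed, with 0 passing. Of these, 8 lay above both heterozygous libraries and 1 below, where 23.5% of all tested genes lay above and 15.0% below. Impact, which restrains the amino acid sensor GCN2, was read at 2.74 and 3.11 RPM in the knockout-labelled libraries, against 0.693 and 0.207 RPM in the heterozygous ones (limma adjusted p = 0.568). Ppp1ca, a catalytic subunit that works with GADD34, had 12 and 10.9 RPM in the knockout-labelled libraries, with 7.62 and 2.097 RPM in the heterozygous ones. Eif2b1, a subunit of the exchange factor that phosphorylated eIF2 blocks, had 18.2 and 16.6 RPM, with 11.3 and 6.085 RPM in the heterozygous libraries. All 4 libraries read Nck1, an adaptor that acts on eIF2 phosphorylation, at 20.5 and 24.5 RPM (knockout-labelled) and at 12.99 and 10.2 RPM (heterozygous).

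Genes that ATF4 or CHOP can switch on made up the next list. Of 30 listed, 22 were tested and 0 passed. Both knockout-labelled libraries lay above for 10 (23.5% of all tested genes) and below for 4 (15.0% of all tested genes), and the median log2 difference was 0.29. Atf3, a stress-induced transcription factor that is also an immediate early gene, reached 15.7 and 9.41 RPM in the knockout-labelled libraries, and the heterozygous ones had 0 and 0.295 RPM (limma adjusted p = 0.202). Ero1l, an oxidase of the endoplasmic reticulum, reached 15.9 and 13.2 RPM, with 7.27 and 7.95 RPM in the heterozygous libraries. Slc7a5, a transporter of large neutral amino acids, was instead at 2.08 and 10.4 RPM against 17.3 and 17.9 RPM (limma adjusted p = 0.544). Fgf21, which encodes a secreted hormone, had 0.284 and 0.355 RPM against 2.42 and 1.59 RPM (limma adjusted p = 0.607).

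The 12 tRNA synthetase genes, a further set under ATF4 control, had a median of 0.29 with 5 above and 0 below (23.5% and 15.0% of all tested genes) and 0 passing. Tars, for threonine, was at 6.002 and 7.28 RPM in the knockout-labelled libraries and 1.38 and 3.99 RPM in the heterozygous ones. Nars, Gars and Wars had the next smallest p and also lay above, by 0.66, 0.42 and 0.34 on the log2 scale.

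Target genes of ATF6 and XBP1, mostly chaperones and degradation factors of the endoplasmic reticulum, had a median of -0.03 over 23 tested genes of 24 listed. Here 5 of 23 lay above and 4 below, near the 23.5% and 15.0% of all tested genes, 0 passed, and the highest difference was 0.57. Hyou1, a chaperone, was at 36.3 and 38.2 RPM in the knockout-labelled libraries, against 28.6 and 22.8 RPM in the heterozygous ones (limma adjusted p = 0.659). Sel1l, of the degradation complex, had 23.2 and 22.7 RPM, with 15.8 and 15.2 RPM in the heterozygous libraries. Dnajb11 and Sdf2l1, which work together as chaperone partners, differed by 0.42 and 0.57 on the log2 scale. The 4 that lay below were Hspa5, Calr, Edem1 and Derl3. Hspa5 was at 290.5 and 316 RPM in the knockout-labelled libraries, against 424 and 319 RPM in the heterozygous ones. Summed over the list, the knockout-labelled libraries held 2998 and 3032 RPM and the heterozygous ones 3451 and 2971 RPM.

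Further sensors and signalling genes of this branch had a median of 0.08 over 13 tested genes of 15 listed, with 5 above and 3 below (23.5% and 15.0% of all tested genes) and 0 passing. Creb3l4, a testis relative of ATF6, was at 369 and 332 RPM in the knockout-labelled libraries, against 195 and 298 RPM in the heterozygous ones (limma adjusted p = 0.616). Map3k5, the ASK1 kinase that couples IRE1 to stress kinases, was at 10.6 and 9.05 RPM against 25.3 and 16.98 RPM (limma adjusted p = 0.563). Mapk8, the JNK1 kinase gene, and Atf6b, a close relative of Atf6, were higher by 0.57 and 1.27 on the log2 scale without passing.

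Immediate early and heat shock genes were examined beside the stress response because several respond to cell handling. Of 24 listed, 17 were tested, 10 had both knockout-labelled libraries above (23.5% of all tested genes), 2 had both below (15.0%), 0 passed, and the median log2 difference was 1.21. Fos, a subunit of the AP-1 factor, stood at 26.3 and 14.6 RPM in the knockout-labelled libraries, with 0 reads in either heterozygous library. Klf6, Egr1 and Btg2 differed by 4.33, 3.52 and 3.60 on the log2 scale (limma adjusted p = 0.295, 0.295 and 0.36). Each was at 1.04 RPM or less in the heterozygous libraries. Fos, Klf6, Egr1 and Btg2 lay above in the same libraries as Atf4, Asns, Ern1, Xbp1 and Ppp1r15a, and their part in those values was not tested. The heat shock gene Hsph1 was at 48.7 and 57.15 RPM in the knockout-labelled libraries, against 44.9 and 40.8 RPM in the heterozygous ones. Dnajb1 was lower, at 157 and 143 RPM against 182 and 190 RPM, and Hspa1a and Hspa1b were not tested.

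No marker of another cell type passed the test, and the lists differed in how many of their genes lay above or below, against 23.5% and 15.0% of all tested genes. Of 19 tested macrophage markers 16 lay above and 0 below, with a median of 3.80, and Tyrobp was at 0 in both heterozygous libraries. The other 3, Adgre1, Fcgr3 and Cd163, overlapped. Adgre1 was at 21.6 and 8.43 RPM in the knockout-labelled libraries and 12.99 and 12.49 RPM in the heterozygous ones. Of 8 Leydig cell markers 4 were tested, and of these 3 lay above and 0 below (median 3.33). Hsd3b1 overlapped, at 3.119 and 1.154 RPM in the knockout-labelled libraries and 3.291 and 1.004 RPM in the heterozygous ones. Among those not tested, Hsd3b6 was at 0 in both heterozygous libraries, while Lhcgr was highest in heterozygous library 1, at 0.693 RPM. Spermatogonial markers had a median of 1.03 with 4 of 7 above and 0 below. They summed to 87.0 and 75.9 RPM in the knockout-labelled libraries and 57.8 and 50.9 RPM in the heterozygous ones. Sertoli cell markers had a median of 0.82 with 4 of 8 above and 0 below. Their sum was 62.0 and 63.4 RPM against 26.5 and 48.7 RPM, and Amh was at 0 in all 4 libraries. Peritubular and stromal markers had a median of 1.38 with 2 of 7 above and 0 below, and their sum was 129 and 102 RPM against 120.5 and 16.4 RPM. Round spermatid markers had a median of 0.19 with 5 of 12 above and 0 below. Spermatocyte markers had a median of -0.01 with 1 of 8 above and 1 below. The sums of spermatocyte markers were 717 and 819 RPM against 856 and 646 RPM. The part of these cells in the values of the stress response genes was not tested.

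**Figure D4:**
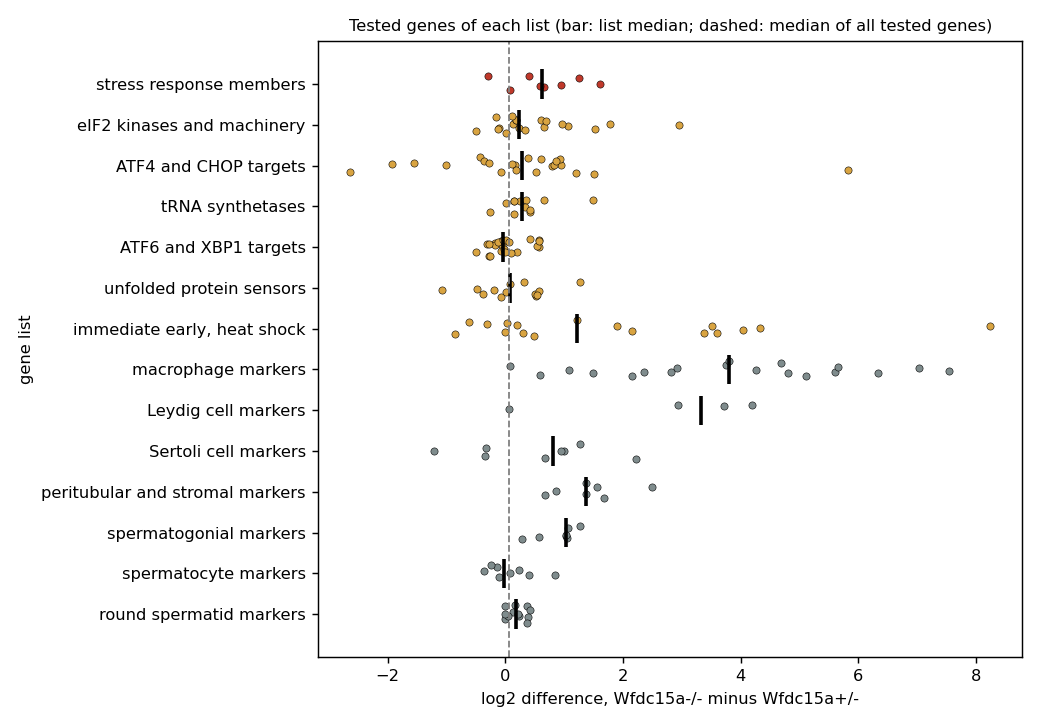
Log2 difference between knockout-labelled and heterozygous libraries for each tested gene of the stress response (red), of related pathways (yellow) and of cell type markers (grey), with list medians as bars and the median of all tested genes (0.068) as a dashed line. The median of the stress response members (0.63) lies to the right of that of the ATF6 and XBP1 targets (-0.03). It lies to the left of the macrophage marker median (3.80), and single genes of the members overlap with those of both lists.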

How the data were processed

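The authors deposited log2 RPM values per gene with no length adjustment; the submitters' processing notes name the mm10 build, the aligner HISAT2 2.1.0, the trimmer Trim Galore 0.6.6 and FastQC 0.11.8. The sources used here name no counter or annotation. Libraries were made with 15 PCR cycles, without strand or molecular identifiers, per the labels' protocols. The lowest value of a library was read as 0.9 of a read, after which 99.68% to 99.99% of the other values were whole within 0.01 of a read. More genes had 2 reads than 1 read in every library, so both mates may have been counted. The titles give the groups. Genes that reached 1 RPM in at least 2 libraries entered the test, made with limma 3.58.1 (R 4.3.3) on the deposited values, two-sided, with a mean-variance trend and Benjamini-Hochberg adjustment over all 15888 genes at 0.05. The code was tested on simulated data. Exon lengths are from GENCODE M21. The 13 lists hold 200 symbols, of which 200 were matched, 4 by an older symbol. Members and lists were chosen with earlier results of these data known. All members are named, and from pathway lists up to 4 tested genes with the smallest p. The heat shock genes and the ATF6 and XBP1 targets that lay below are named besides. Alternatives were 2 scalings, log2(RPM + 1), 2 filters, no trend, voom, a replicate block, left-out libraries and a threshold of 0.1. A common lowest value was chosen after seeing the data. Python 3.11.15, pandas 2.3.3 and matplotlib 3.10.9 were used.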

Additional observations from a re-analysis of the deposited data

How the results depend on the processing

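Of 15888 genes tested with limma 0 passed, with 1283 at an unadjusted p under 0.05 (76.9% of them higher, 65.6% with median-ratio scaling, 55.9% with quantile normalization), and voom gave 0 and 1961. With log2(RPM + 1) 1 gene passed and without a filter 180, none of them a member. The count of passing genes ran from 0 to 558 on leaving out 1 library, and that of members from 0 to 1 (Asns, without heterozygous library 2), in fits that take the lone library to vary like the other group. On leaving out 1 library, the Atf5 difference ran from -0.65 to 0.06 (positive without knockout-labelled library 2) and that of Atf6 from -0.10 to 0.26 (-0.10 without heterozygous library 1, -0.01 without knockout-labelled library 1). The other members kept their direction under every alternative run, and with a 5 RPM minimum Xbp1 was not tested. With the replicate block 66 genes and 0 members passed, but same-numbered libraries did not deviate together (r = -0.076 across genes), so the numbers were not taken as pairs. Heterozygous library 1, the shallowest, held 15 to 27 reads for 5 of the 8 tested members. The cause of these differences was not tested.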

Other observations

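The 4 eIF2 kinases stood at very different levels, as chosen after their values were seen. In RPM per kb of exon, Eif2ak1, the kinase best known from red cell precursors as a haem sensor, was at 49.8 and 46.2 in the knockout-labelled libraries and at 38.1 and 49.8 in the heterozygous ones. Eif2ak2, the kinase of double-stranded RNA, was at 5.88 and 5.24 against 5.62 and 5.42. Eif2ak4, the amino acid sensor GCN2, was at 0.482 and 0.381 against 0.232 and 0.0673, and Eif2ak3, the endoplasmic reticulum sensor PERK, at 0.251 and 0.133 against 0.172 and 0.0833. The order of Eif2ak1 over Eif2ak2 over the other two held in all 4 libraries.

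Among relatives of Atf6, also chosen after their values were seen, Creb3l4 was at 219.5 and 198 RPM per kb in the knockout-labelled libraries and 116 and 177 in the heterozygous ones. Creb3 was at 10.3 and 6.44 against 8.10 and 9.10, and Creb3l2 at 0.487 and 0.487 against 0.499 and 0.462. Ppp1r15b, the constitutive partner of Ppp1r15a, was at 3.37 and 2.95 RPM per kb against 2.82 and 2.74, above Ppp1r15a in every library.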
